A study of Homo sapiens
Rattus norvegicus and Homo sapiens with 10 samples.

Results

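The 84 genes for the proteins of the cytosolic ribosome were taken by symbol from a table of 62754 human genes: every gene named RPL or RPS with a number, together with RPSA, RPLP0, RPLP1 and RPLP2, leaving out the RPS6K kinases and all pseudogenes. They comprised 46 core proteins of the large (60S) subunit, 31 core proteins of the small (40S) subunit and 7 paralogues, which are second copies of a core gene (RPL3L, RPL7L1, RPL10L, RPL22L1, RPL26L1, RPL39L and RPS27L). RNA was sequenced from U251N, an established human glioblastoma line, grown in the brains of adult female athymic RNU/RNU rats, which lack T cells. The 3 recurrent tumours had regrown after laser interstitial thermal therapy (LITT), a heating of the tumour through a laser fibre with the Visualase system, guided by diffusion-weighted magnetic resonance imaging. The 3 primary tumours came from rats implanted in the same way and not ablated. Of the 3 controls, labelled tumour-free, 1 was a brain in which the graft had failed and the others were procedural controls, and 1 library came from untreated U251N cells in culture, kept outside the experiment as an outside reference. U251N is 1 line, the hosts lack T cells, and no label states outright that the libraries came from separate animals. Spread between libraries may therefore be technical in part.

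Ribosomal proteins are built in near-equal numbers into each ribosome, and their mRNAs are among the most abundant of a growing cell. Nearly all of these mRNAs begin with a 5′ terminal oligopyrimidine (TOP) tract, a C followed by a run of C and T (U in the RNA), through which the mTOR pathway and the binding protein LARP1 control their translation and stability. In glioblastoma, as in other cancers, ribosome production is commonly raised, and several of these genes are host to the small nucleolar RNAs (snoRNAs) that guide modification of ribosomal RNA.

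The TOP tract is the sequence feature that ties the members together. The annotated starts below are examples, each the start of longest run among the complete transcripts of its gene. The C and the pyrimidines that follow it are in capitals, and the first 20 bases of each transcript are printed 5′ to 3′.
RPL34: CTTTTTTCTTCCTCTTCCgg
RPL32: CCCTTCTCTCTTCCTCggcg
RPL35: CTTCCTCTTTCCCTCggagc
RPS24: CTCTTTTCCTCCTTggctgt
RPS3A: CCTTTTggctctctgaccag
RPL22L1: CTCTCTgctctcgcggccga
The first 4 are core genes with long runs, and RPS3A and RPL22L1 return below with their values. On GRCh38 the ends lie at chr4:108620566-108620585 (plus strand) for RPL34, chr3:12841527-12841546 (minus strand) for RPL32 and chr9:124861942-124861961 (minus strand) for RPL35. Those of the 40S genes lie at chr10:78033863-78033882 for RPS24 and chr4:151099629-151099648 for RPS3A, both on the plus strand, and that of RPL22L1 at chr3:170870176-170870195 on the minus strand. With 1 transcript per gene, 16 of 84 members (19.05%) began with a C followed by at least 4 pyrimidines, against 2.68% of 19831 protein-coding genes. With the start of longest run among all complete transcripts of a gene, 45 of 84 members (53.6%) did, against 6.65% of protein-coding genes. Starts in GENCODE release 29 are not exact to the base, so a gene without the run here may still carry the tract, and the core genes RPL24, RPSA and RPS26 were among those without it.

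The members were spread over 21 chromosomes, with 12 of them on chromosome 19. Inside the bounds of 28 members lay 60 annotated snoRNA genes, 5 of them in RPL4. Near-identical processed copies are a known difficulty of this family: the table held 1601 pseudogene rows named after 78 of the members. Those rows took counts equal to 1.85% to 2.29% of the members' counts in the tumours. The exceptions were RPL22, RPS2, RPL36A and RPL23A, whose pseudogene rows reached 52.3%, 23.8%, 15.3% and 7.88% of the parent's counts in the tumours, so the levels of these 4 genes depend on how reads were divided and are uncertain.

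The tumour libraries held 20321590 to 39714714 estimated counts, the controls 1358753 to 4158124 and the culture 65058642. Graft reads made up 29.44% to 42.67% of the reads of recurrent tumours, 42.52% to 64.4% of primary tumours and 0.33% to 4.9% of controls. Structural small RNA genes, such as those of the signal recognition particle, took 6.43% to 12.7% of the counts in recurrent tumours, 6.04% to 14.1% in primary tumours, 31.3% to 92.6% in controls and 5.46% in the culture. Markers of the line (VIM, NES, EGFR, SOX2, CD44 and TNC) summed to 8311 to 9000 CPM (counts scaled to a common library total) in recurrent tumours and 7677 to 9724 CPM in primary tumours. They summed to 100, 534 and 7520 CPM in the libraries labelled control 1, 2 and 3 and 12205 CPM in the culture. With 4.9% graft reads and line markers near the level of the tumours, the library labelled control 3 goes against its description as tumour-free. All 4 blood markers and 5 of 7 microglia markers (AIF1, C1QA, C1QB, CX3CR1 and P2RY12) were at 0 in every tumour, as was 1 of 4 endothelial markers (CLDN5). The 8 neuron markers summed to 769 to 1022 CPM in recurrent tumours, 873 to 1434 CPM in primary tumours, 221 to 617 CPM in controls and 535 CPM in the culture, and no marker was at 0 in all tumours. The 6 oligodendrocyte markers summed to 124 to 201 CPM in recurrent tumours, 162 to 180 CPM in primary tumours, 133 to 285 CPM in controls and 135 CPM in the culture, and again none was at 0 in all tumours.

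Together the members took 3.12%, 3.44% and 3.28% of all counts in recurrent tumours 1 to 3, against 3.55%, 5.46% and 3.67% in primary tumours 1 to 3. Control libraries 1 to 3 gave 0.0643%, 0.27% and 1.73%, and the culture 3.31%. Wilson 95% intervals, which cover counting error only, reached at most 0.0088 percentage points to either side in a tumour, 0.0125 in a control and 0.0043 in the culture. Every recurrent tumour lay below every primary tumour, and primary tumour 2 lay far above the other 5. As a share of the counts of protein-coding genes, which sets structural RNA aside, the members took 3.69%, 3.78% and 3.74% in recurrent tumours and 4.01%, 6.58% and 4.01% in primary tumours. Recurrent tumours again all lay below the primary tumours, with primary tumour 2 highest. The share of protein-coding counts was 0.904%, 2.73% and 2.59% in controls and 3.66% in the culture, so the gap between tumours and controls was smaller on this scale.

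**Figure D1:**
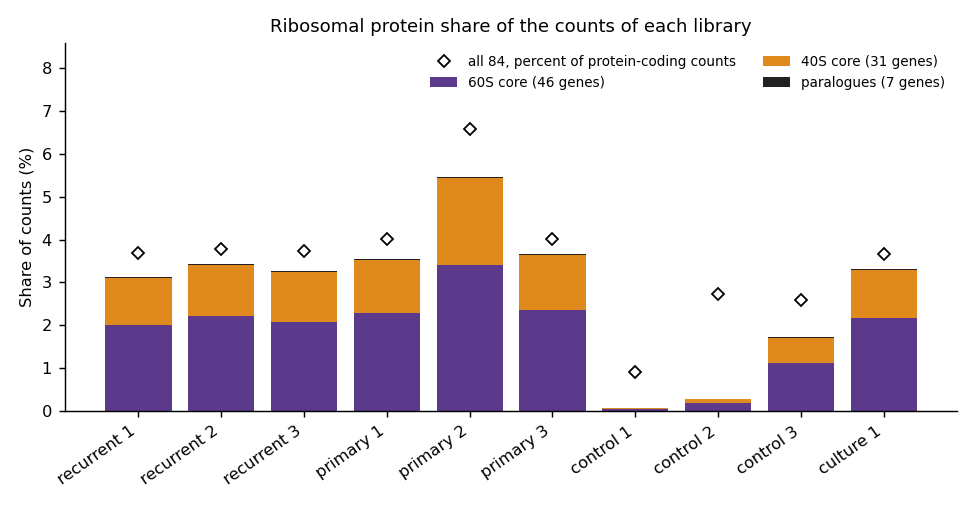
Share of counts taken by the ribosomal protein genes in each of the 10 libraries. Stacked bars give the 60S core, 40S core and paralogue genes as percent of all counts, and open diamonds give all 84 genes as percent of protein-coding counts; recurrent tumours stood at 3.12% to 3.44% of all counts and primary tumours at 3.55% to 5.46%.

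The subunits kept a near-constant ratio. Counts of 60S core genes were 1.82, 1.84 and 1.78 times those of 40S core genes in recurrent tumours, 1.85, 1.7 and 1.81 times in primary tumours and 1.92 times in the culture. Primary tumour 2 had the lowest ratio of the 6 tumours. Within the core genes, the ranking by share of the pool was close to that of the tumour mean in every tumour (Spearman's rho 0.990 to 0.996 across 77 genes) and in the culture (0.972). These are descriptions across genes that share a library, and each tumour is part of the mean.

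Levels are compared between members per kilobase of coding sequence, as CPM scaled by TMM (edgeR's trimmed mean of M values) and averaged over the 6 tumours. RPL41, the smallest ribosomal protein, stood highest at 3430 CPM per kb (2588 to 5186 over tumours), a value that its coding length of 75 bases inflates, since reads also cover the untranslated ends. RPLP1, an acidic protein of the stalk that recruits elongation factors, followed at 2714 CPM per kb (2239 to 4192), and RPL13A, also known for a role in translational silencing outside the ribosome, at 2673 CPM per kb (2193 to 4344). The ranges of these 3 genes overlapped. Among the core genes, the lowest were RPS29, a zinc-binding 40S protein, at 217 CPM per kb (154 to 298), RPS9, which lies at the mRNA entry of the 40S subunit, at 309 (256 to 479), and RPL9, which lies near the factor-binding site of the 60S subunit, at 314 (242 to 564). Mature ribosomes hold these proteins in equal number, apart from the stalk proteins, while their CPM per coding kb spanned more than a factor of 10. Reads cover the untranslated ends of every member, and in RPLP1 342 of 1197 transcript bases were coding. These values therefore also depend on the length of the untranslated ends, and their span is not one of mRNA copies.

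In recurrent against primary tumours the ribosomal protein genes read lower as a body, and none passed the test singly. The point estimate was below 0 for 82 of 82 tested members, against 51% of all tested genes. The median log2 fold change was -0.40 over members, with -0.39 for the 60S core, -0.42 for the 40S core and -0.30 for the tested paralogues, against -0.01 over all tested genes. The members ran from -0.67 (RPS3A) to -0.08 (RPL7L1). RPL3L and RPL10L, known from muscle and testis, were too low to test.

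Under edgeR's quasi-likelihood test with Benjamini-Hochberg adjustment over 15928 genes, 0 of 82 members were called, with adjusted p from 0.572 to 0.870. The background was near empty too, with 0.00628% of genes called lower and 0% called higher. At an unadjusted p under 0.05, 15 members were lower and 0 higher, against 3.79% of all genes lower and 4.59% higher. DESeq2 called 0 members (0.139% of genes lower, 0.216% higher) and had 43 lower at unadjusted p under 0.05 (2.55% of genes), while limma-voom called 0 and had 8 lower (3.88% of genes). With no filter on low counts edgeR called 2 members lower, against 0.61% of genes lower and 0.752% higher: RPL9 (-0.62, adjusted p = 0.0482) and RPS21 (-0.63, adjusted p = 0.0355). In bulk tissue, fewer cells of a type and less RNA per cell cannot be told apart, and values are relative to the other RNA of a library.

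Among 60S genes, RPL24 (ENSG00000114391.14, chr3:101681091-101686782, minus strand, GRCh38), a protein at the interface with the 40S subunit, had the lowest p. It stood at 234, 216 and 248 TMM-scaled CPM in recurrent tumours and 277, 490 and 280 in primary tumours. The groups did not overlap, and primary tumour 2 was well above the rest. Its log2 fold change was -0.58 (SE 0.23, adjusted p = 0.572 by edgeR), and -0.26 without primary tumour 2. RPL9 stood at 139, 146 and 143 CPM in recurrent tumours and 176, 325 and 155 in primary tumours, giving -0.61 (SE 0.25). RPL18 stood at 253, 254 and 256 CPM in recurrent tumours and 297, 426 and 294 in primary tumours, giving -0.42 (SE 0.18). Neither RPL9 nor RPL18 overlapped between the groups, and the recurrent tumours lay within a few CPM of each other for both.

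Of the 60S genes highest per coding kb, RPL13A and RPLP1 stood apart between the groups and RPL41 did not. RPL13A (chr19:49487554-49492308, plus strand), in which 4 snoRNA genes lie, stood at 1360, 1335 and 1339 CPM in recurrent tumours and 1497, 2646 and 1589 in primary tumours (-0.51, SE 0.22). RPLP1 stood at 842, 797 and 766 CPM in recurrent tumours and 849, 1434 and 881 in primary tumours (-0.40, SE 0.21). The groups of RPLP1 were only a few CPM apart. RPL41 stood at 280, 194 and 219 CPM in recurrent tumours and 248, 389 and 213 in primary tumours (-0.29, SE 0.24, and 0.016 once the trend with transcript length was removed).

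Of the 40S genes, RPS21 stood at 169, 115 and 126 CPM in recurrent tumours and 179, 297 and 157 in primary tumours (-0.63, SE 0.25), with recurrent tumour 1 above primary tumour 3. RPS3A (ENSG00000145425.10, chr4:151099573-151104652, plus strand), a protein near the mRNA exit of the 40S subunit, stood at 476, 469 and 523 CPM in recurrent tumours and 570, 1192 and 581 in primary tumours. The RPS3A groups did not overlap, and primary tumour 2 held more than 2 times the level of any recurrent tumour; the log2 fold change was -0.67 (SE 0.27, adjusted p = 0.576 by edgeR). RPS14, whose loss of 1 copy is known from the 5q- form of myelodysplastic syndrome, stood at 162, 147 and 143 CPM in recurrent tumours and 166, 301 and 176 in primary tumours (-0.51, SE 0.22). RPS14 stayed apart by a few CPM.

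RPS29 and RPS9 overlapped between the groups. RPS29 stood at 39.9, 25.9 and 34.8 CPM in recurrent tumours and 37.5, 50.1 and 31.1 in primary tumours (-0.24, SE 0.21). RPS9 stood at 167, 149 and 161 CPM in recurrent tumours and 152, 279 and 170 in primary tumours (-0.33, SE 0.22, and -0.02 without primary tumour 2). For both genes the primary tumours other than the second lay inside or near the recurrent range.

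All 5 tested paralogues had point estimates below 0. RPL22L1 (ENSG00000163584.18, chr3:170864875-170870483, minus strand), which in the mouse is held down by RPL22, stood at 22.4, 37.5 and 28.9 CPM in recurrent tumours and 32.6, 54.4 and 43.2 in primary tumours, with overlap (-0.55, SE 0.23, adjusted p = 0.587 by edgeR). RPL26L1 stood at 26.2, 27.6 and 27.4 CPM in recurrent tumours and 29.3, 46.7 and 31.5 in primary tumours, without overlap (-0.40, SE 0.19). RPL39L, a paralogue best known from the testis, stood at 6.45, 5.83 and 5.73 CPM in recurrent tumours and 6.27, 8.62 and 7.30 in primary tumours (-0.30, SE 0.24). RPL39L overlapped through recurrent tumour 1.

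RPL7L1, a nucleolar protein of 60S assembly, had the fold change nearest 0 of the 82 tested members. It stood at 150, 170 and 161 CPM in recurrent tumours and 167, 172 and 169 in primary tumours (-0.08, SE 0.13). RPS27L, a target of p53, stood at 30.0, 27.7 and 22.8 CPM in recurrent tumours and 24.6, 41.8 and 22.5 in primary tumours (-0.14, SE 0.23). Its point estimate turned to 0.18 without primary tumour 2. Per coding kb, RPL22L1 stood at 7.53%, 11.4% and 7.98% of RPL22 in recurrent tumours, 9.43%, 12.6% and 12.1% in primary tumours and 7.40% in the culture, with RPL22 itself uncertain because of its pseudogene rows.

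Primary tumour 2 carried much of the difference. It was the highest of the 6 tumours for 82 of 82 tested members, against 27.5% of all tested genes, and stood a median of 0.79 log2 units above the mean of the other 5, from 0.07 (RPL7L1) to 1.18 (RPS3A). The lowest tumour was a recurrent one for 78 of the 82 members: the first for 39, the second for 20 and the third for 19. Primary tumour 3 was lowest for the remaining 4.

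**Figure D2:**
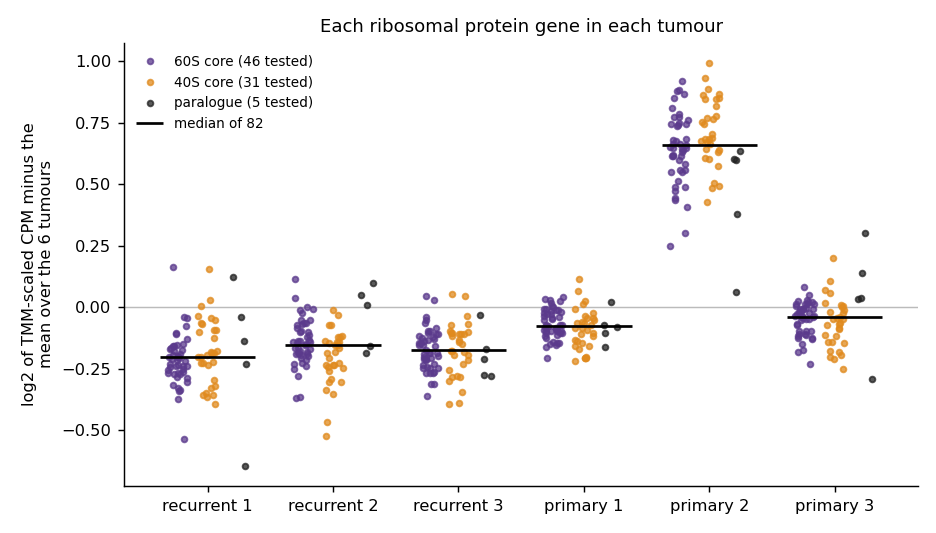
Each tested member in each tumour, as the log2 of its TMM-scaled CPM minus its own mean over the 6 tumours; points are genes coloured by class and black lines the median of 82 genes. The medians were -0.20, -0.15 and -0.17 in recurrent tumours 1 to 3 and -0.07, 0.66 and -0.04 in primary tumours 1 to 3.

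Without primary tumour 2, the median log2 fold change moved to -0.11, 78 of 82 point estimates stayed below 0 (50.4% of genes), and 1 member had an unadjusted p under 0.05 (2.84% of genes lower). Without primary tumour 1 the median was -0.53, with 49 members at unadjusted p under 0.05 (4.42% of genes lower), and without primary tumour 3 it was -0.51, with 39 (3.52%). Leaving out a recurrent tumour gave medians of -0.42 to -0.40 with 0 to 2 of 82 members at unadjusted p under 0.05, against 15 with all 6 tumours. The share of all genes was not counted for fits without a recurrent tumour, so those members have no background here. No member was called under any of these 6 fits. The RNA integrity number of primary tumour 2 was 7.8, against 8.1 to 8.8 in recurrent tumours and 8.9 in both other primary tumours, so it was the lowest of the 6. Its structural RNA share, 14.1%, was the highest of the 6. With structural RNA genes left out before scaling, the median over members was as large (-0.40) and 82 of 82 estimates were below 0. The part of RNA integrity in the result was not tested.

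**Figure D3:**
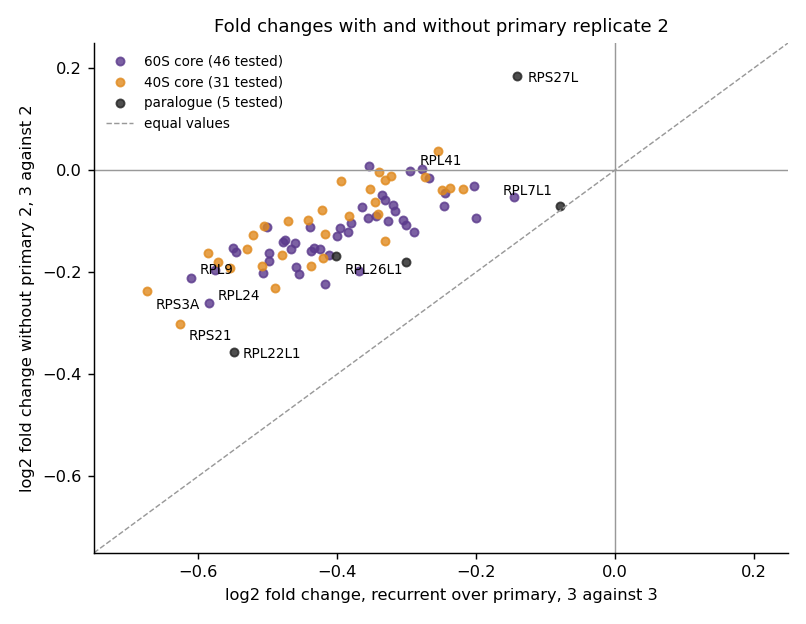
Log2 fold change of each tested member, recurrent over primary, with all 6 tumours (x axis) and without primary replicate 2 (y axis); colours give the class and the dashed line marks equal values. All 82 points lie left of 0 on the x axis, and on the y axis the median is -0.11 and 78 lie below 0.

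A count that does not rest on primary tumour 2 is that of members whose groups did not overlap. With TMM scaling, all 3 recurrent tumours lay below all 3 primary tumours for 34 of 82 members, against 7.41% of genes, and above them for 0 (7.94% of genes). Since primary tumour 2 was the highest throughout, the same 34 stood apart with that tumour left out, where the share of all genes was 11.6%. They were 26 of 46 60S genes (56.5%), 7 of 31 40S genes (22.6%) and RPL26L1. The 40S genes included RPS3A, RPS10, RPS13, RPS14 and RPS18. Under 3 other scalings the count was 43 (library total), 34 (total without structural RNA) and 33 (total of protein-coding genes), against 7.76%, 6.71% and 6.70% of genes. The members share libraries and are not replicates, and with 3 against 3 libraries an exact test of any single value cannot go below p = 0.1.

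Length of transcript moved with the size of the difference. Across the 82 tested members, the excess in primary tumour 2 had a Spearman correlation of -0.42 with the length of the transcript and 0.02 with that of the coding sequence, and the fold change one of 0.30 and -0.04. A trend with transcript length was fitted in each tumour over protein-coding genes, on log2 levels relative to each gene's mean over the 6 tumours. With that trend removed, the median of the members was -0.18 and 76 of 82 estimates were below 0 (49% of genes), with 6 at unadjusted p under 0.05 (3.88% of genes lower). With primary tumour 2 left out as well, an alternative added after the data had been seen, the median was -0.073 and 65 of 82 were below 0. A fit that held the graft percentage of each tumour as a covariate gave a median of -0.56. Library names begin with IL for the primary tumours and recurrent tumour 1, and with NL for recurrent tumours 2 and 3. The labels do not say what the letters mean, and among the IL libraries alone, with 1 recurrent tumour, the median was -0.44.

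Other genes of the translation machinery were read from lists written from general knowledge, and 0 genes of any of these lists were called. Of 21 tested translation factors and related genes with TOP mRNAs, 18 point estimates were below 0, with a median log2 fold change of -0.22 (-0.07 without primary tumour 2). EEF1A1, which brings aminoacyl-tRNA to the ribosome, stood at 4482, 5097 and 5235 CPM in recurrent tumours and 5675, 9044 and 5944 in primary tumours (-0.48, SE 0.19). TPT1, the translationally controlled tumour protein, stood at 922, 1121 and 943 CPM in recurrent tumours and 1131, 2213 and 1238 in primary tumours (-0.62, SE 0.25). EEF1B2, the exchange factor of EEF1A1, gave -0.48 (SE 0.22). All 3 genes had their highest value in primary tumour 2, as the ribosomal proteins did.

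The 8 snoRNA host genes that encode no ribosomal protein were all below 0 (median -0.24, and -0.09 without primary tumour 2). SNHG6 stood at 39.1, 41.5 and 47.2 CPM in recurrent tumours and 48.9, 86.2 and 46.2 in primary tumours (-0.50, SE 0.23), GAS5 gave -0.36 (SE 0.20) and EPB41L4A-AS1 -0.57 (SE 0.34). Of 78 mitochondrial ribosomal proteins, which serve the separate ribosome of mitochondria, 73 were below 0, with a median of -0.21 (-0.04 without primary tumour 2). MRPL41 stood at 28.3, 21.5 and 23.5 CPM in recurrent tumours and 31.1, 45.5 and 33.7 in primary tumours (-0.59, SE 0.18, adjusted p = 0.521 by edgeR), without overlap. MRPL16 gave -0.38 (SE 0.15) and MRPL48 -0.66 (SE 0.26).

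Ribosome biogenesis factors did not share the direction: 13 of 28 were below 0, with a median of 0.01 (0.02 without primary tumour 2). DDX21, a nucleolar helicase, stood at 179, 231 and 233 CPM in recurrent tumours and 164, 161 and 173 in primary tumours (0.37, SE 0.15). POLR1A, the largest subunit of RNA polymerase I, stood at 106, 88.4 and 89.6 CPM in recurrent tumours and 79.6, 47.9 and 81.1 in primary tumours (0.44, SE 0.20). Both were higher in every recurrent than in every primary tumour, and neither was called. RIOK2, a kinase of late 40S maturation, gave -0.32 (SE 0.15).

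Among 16 genes that govern growth and ribosomal gene expression, 4 were below 0 and 12 above (median 0.07, and -0.01 without primary tumour 2). RPS6KB1, the S6 kinase downstream of mTOR, stood at 43.4, 43.8 and 43.3 CPM in recurrent tumours and 38.8, 32.0 and 32.9 in primary tumours, without overlap (0.33, SE 0.14). LARP1, the TOP-binding protein, stood at 337, 354 and 355 CPM in recurrent tumours and 316, 163 and 330 in primary tumours (0.37, SE 0.24). Primary tumour 2 thus held the lowest LARP1 value of the 6 tumours, while the other primary tumours lay just below the recurrent ones. EIF4EBP1, the mTOR substrate that restrains cap-dependent translation, gave -0.33 (SE 0.17).

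**Figure D4:**
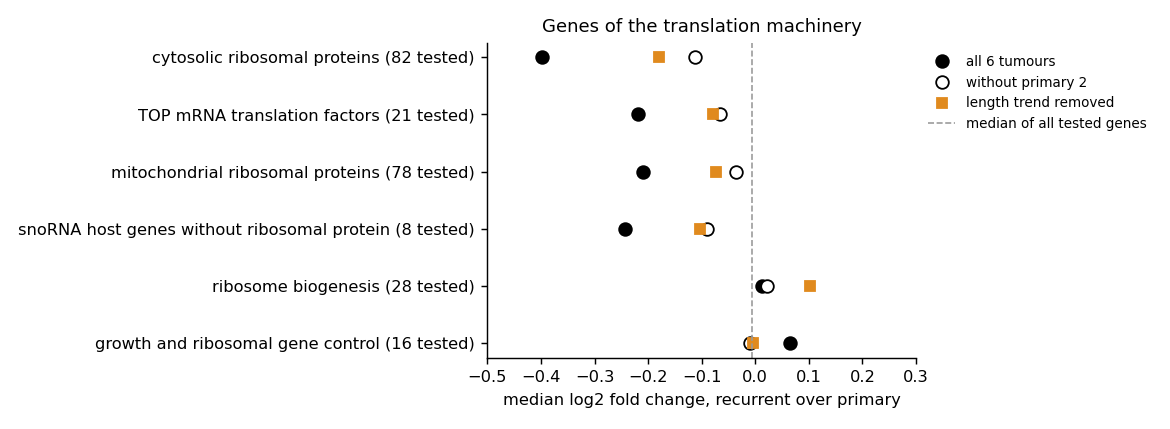
Median log2 fold change, recurrent over primary, of the ribosomal protein genes and 5 other gene lists, with the number of tested genes in brackets. Filled circles use all 6 tumours, open circles leave out primary replicate 2 and squares have the length trend removed; the cytosolic ribosomal proteins stood at -0.40, -0.11 and -0.18, and the dashed line marks all tested genes at -0.01.

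Against the single U251N culture the tumours held ribosomal protein mRNA at a similar level, with no test possible for 1 library. On the scale of CPM of the library total, the median log2 ratio over 82 members was 0.18 for the 6 tumours, -0.01 for the recurrent and 0.35 for the primary ones, each over the culture. No member was at least 2-fold higher or 2-fold lower in all 6 tumours, which 2.44% and 3.47% of 14110 genes were. All 6 tumours lay above the culture for 19 members (21.4% of genes) and below it for 1 (32.9% of genes). Without primary tumour 2 the median was 0.05.

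Of the core genes, the 40S genes RPS26 and RPSA had the highest ratios to the culture. RPS26 (chr12:56041351-56044697, plus strand), a protein at the mRNA exit whose mutation causes Diamond-Blackfan anaemia, stood at 182, 163 and 179 CPM in recurrent tumours and 182, 288 and 219 in primary tumours, against 98.5 in the culture. Every tumour was at 1.66 to 2.92 times that level. RPSA, a 40S protein first described as a laminin receptor precursor, stood at 585, 655 and 576 CPM in recurrent tumours and 623, 1197 and 721 in primary tumours, against 418 in the culture. The lowest tumour was 1.38 times the culture for RPSA.

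The paralogue RPL26L1 (ENSG00000037241.7, chr5:172958729-172969771, plus strand) stood at 25.6, 28.6 and 27.4 CPM in recurrent tumours and 29.9, 43.7 and 32.2 in primary tumours, against 15.04 in the culture, or 1.70 to 2.90 times that level. Per coding kb, RPL26L1 came to 3.31% to 4.11% of RPL26 in the 6 tumours and 1.76% in the culture. For RPS27L and RPL39L the culture lay inside the range of the tumours, with RPS27L at 10.7% to 14.5% of RPS27 in tumours and 11.7% in the culture, and RPL39L at 2.11% to 3.69% of RPL39 in tumours and 2.87% in the culture. As a percentage of RPL22, given above, RPL22L1 was higher in every tumour than in the culture, by little in recurrent tumour 1. That ratio also moves with RPL22, which stood at 305 CPM in recurrent tumour 1 and 347 CPM in the culture and is uncertain. RPL7L1 came to 29.7% to 41.4% of RPL7 in tumours and 41.5% in the culture. Primary tumour 2 was lowest, and primary tumour 3 (41.43%) was all but level with the culture (41.46%).

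At the other end, RPS29 stood at 38.9, 26.8 and 34.8 CPM in recurrent tumours and 38.3, 46.8 and 31.8 in primary tumours, against 50.8 in the culture, and was the 1 member below the culture in every tumour. RPL23A, which lines the exit of the peptide tunnel, stood at 626, 697 and 678 CPM in recurrent tumours and 761, 976 and 691 in primary tumours, against 896 in the culture, and its level is uncertain because of pseudogene rows. RPL37 stood at 190, 216 and 189 CPM in recurrent tumours and 229, 300 and 198 in primary tumours, against 262 in the culture. For RPL23A and RPL37 primary tumour 2 lay above the culture and the other 5 below it.

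**Figure D5:**
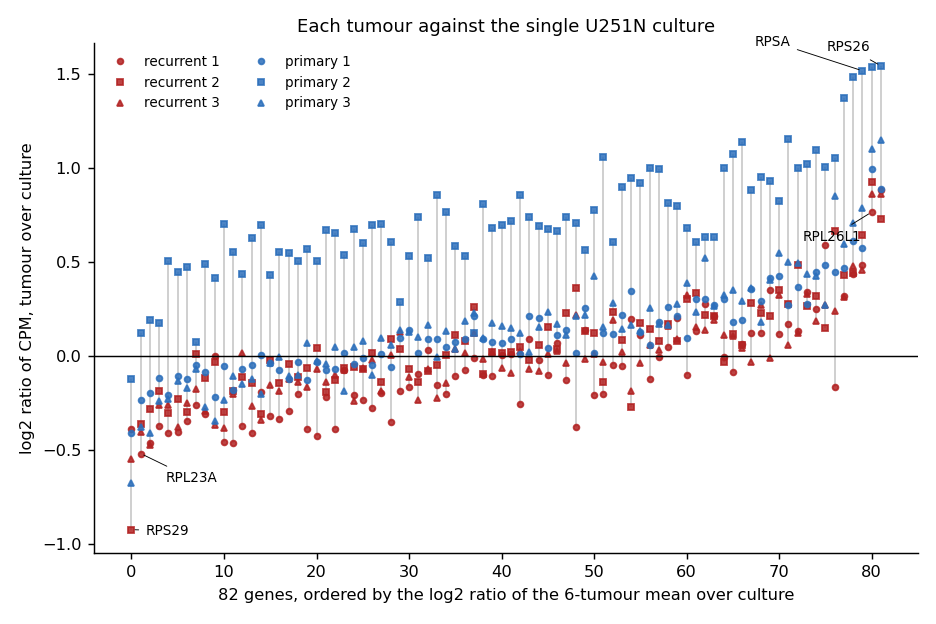
Log2 ratio of the CPM of each tumour over the U251N culture for the 82 tested members, ordered by the ratio of the tumour mean; red symbols are recurrent and blue symbols primary tumours, and grey lines span the 6. RPS26 and RPL26L1 stand above 0 in all tumours, RPS29 below 0 in all, and blue squares (primary 2) lie at or near the upper edge.

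The controls were set beside the tumours to show the counts that members receive in brains labelled tumour-free. As given above, the library labelled control 3 held 4.9% graft reads and line markers near the tumours' level, so its counts cannot be told apart from those of graft cells. All 84 members together had 873, 4603 and 72039 counts in controls 1 to 3, against 634308 to 870514 in recurrent tumours and 900781 to 1458338 in primary tumours. Members at 0 numbered 8, 3 and 2 in controls 1 to 3, where a count of 0 allows up to 2.21, 1.76 and 0.721 CPM. RPL13A stood at 1327, 1385 and 1339 CPM of the library total in recurrent tumours and 1532, 2474 and 1629 in primary tumours, against 22.8, 101 and 710 in controls. RPS14 was at 0 in control 1 and stood at 9.99 and 83.7 CPM in the others, against 143 to 158 in recurrent and 170 to 281 in primary tumours.

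Relative to the other RNA of each library, 80 of 82 members had a point estimate above 0 in tumours over controls (62.6% of genes), with a median log2 fold change of 0.86, and of 0.95 without control 3. None was called by edgeR, where 1.17% of 16389 genes were called higher and 4.86% lower, and 40 had an unadjusted p under 0.05 (11.1% of genes higher). The lowest adjusted p was 0.0780, for RPL14 (1.40, with RPS12 at 1.41 and RPS3A at 1.44). DESeq2 called 14 members higher (0.879% of genes higher, 6.58% lower), RPL14 and RPS3A among them, and edgeR without control 3 called 11 higher (8.85% of genes higher, 8.27% lower). RPL39L (-0.08, SE 0.74) and RPL22L1 (-0.07, SE 0.39) were the only point estimates below 0, both paralogues of low count. The RNA integrity number was 8.7, 6.1 and 8.9 in controls 1 to 3, against 7.8 to 8.9 in the tumours. Its part in this comparison was not tested.

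Host reads were not counted directly: they were inferred from each library's count total and graft percentage, as if that total were its graft reads. The median over the controls of a member's counts per host read was then taken as host RNA. In the tumour where that share is largest, host RNA would make up a median of 0.113% of a member's counts, and at most 0.371% (RPL39L). Without control 3, whose host and graft counts cannot be told apart here, the median was 0.0654% and the maximum 0.187% (RPL22L1), an alternative added after the data had been seen. When structural RNA was set aside in that estimate, as was decided once the data had been seen, the median was 0.955% and the maximum 4.36%. All of these figures depend on which classes of sorted reads were counted, a point on which the sources used here are silent.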

How the data were processed

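Total RNA was sequenced on an Illumina NextSeq from strand-specific, ribosomal-RNA-depleted libraries, per the labels' protocols. The submitters' processing notes name STAR, Salmon 1.10.3, DESeq2 and GRCh38; the sources used here do not give the annotation release. The authors deposited gene-level estimated counts from Salmon in 1 table, not scaled between libraries; shared reads are divided by a model, which matters for ribosomal protein pseudogenes. Per the labels, xengsort gave the graft percentages.

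Of 62754 gene IDs, 58261 matched GENCODE release 29 (GRCh38), the source of gene types, 1-based coordinates, lengths and the 5′ ends. The lengths are those of 1 transcript per gene. For protein-coding genes it was taken from complete transcripts with a coding sequence of the principal length, by best annotated support and then by shortest length. It is therefore not always the shortest. Estimated counts were rounded for tests. Recurrent and primary tumours, and tumours and controls, were compared by a two-sided quasi-likelihood F test in edgeR 4.0.16 (R 4.3.3; TMM scaling, filterByExpr, Benjamini-Hochberg over all tested genes, threshold 0.05; fitted on the 2 groups compared, with no covariates). The SE is the log2 fold change divided by the square root of F. DESeq2 1.42.0 and limma 3.58.1 (voom) were alternatives. The culture was compared without a test, on CPM of the library total with a pseudocount of 1 in log2 ratios, among genes averaging at least 1 CPM. Scripts were tested on simulated data. A count of 0 allows 3 counts; intervals and floors cover counting error only.

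The members and lists were chosen with earlier results of these data known. Named members were the 3 of lowest p in each class, the 3 core genes of highest and of lowest level per coding kb and of highest and lowest ratio to the culture, and the tested paralogues; of each other list, the 3 genes of lowest p. Other genes are named from their values, and some members are not reported here by name. Groups came from the treatment label; replicate numbers follow accession order. Alternatives were other scalings, filters and tools, a graft covariate, removal of the length trend, and leaving out each library.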

Additional observations from a re-analysis of the deposited data

Results flagged for a closer look

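Primary replicate 2 stood apart from the other 5 tumours in the summed ribosomal protein counts. For the share of all counts, the gap between it and the next tumour was 0.764 of the range over the 6 tumours. The same measure was 0.753 for the 60S core genes and 0.786 for the 40S core genes. It was 0.888 for the share of protein-coding counts and 0.881 for the share of counts without structural RNA. These 5 values use the same counts and are not independent, and they treat recurrent and primary tumours as 1 group of 6. Chance alone marks about 1 in 20 groups by this criterion.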

How the results depend on the processing

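The direction of the median over members, recurrent against primary, held under every alternative run, and its size did not. The median of -0.40 became -0.18 with the length trend removed and -0.073 with that and primary replicate 2 left out (chosen after seeing the data); leaving out 1 tumour in turn gave -0.53 to -0.11. Members called lower numbered 2 with no filter on low counts, and 0 under every other alternative. Of the values for named members under alternatives, 326 kept direction and side of the threshold, and 2 (RPL9 and RPS21, no filter) became calls. The 8 that changed sign were RPL41 (0.016 with the length trend removed, 0.034 with primary replicate 2 also left out), RPS29 (0.10 with the length trend removed, 0.0007 with the libraries named IL alone), RPS27L (0.0062 with IL libraries alone, -0.31 to 0.18 with 1 tumour left out, the highest without primary replicate 2, and 0.15 with the length trend also removed) and RPS9 (0.027 with both). In tumours against controls, the median of 0.86 became 2.43 with library totals, and the 0 members called became 14 with DESeq2; leaving out 1 library in turn gave 0 to 11, the highest without control replicate 3. The median log2 ratio of tumours over culture, 0.18, ran from 0.045 to 0.21 with 1 tumour left out, the lowest without primary replicate 2. Other scalings gave higher medians: 0.26 with TMM over 7 libraries, 0.25 with structural RNA left out and 0.23 with the total of protein-coding genes. In each case the cause was not tested. No paired analysis was possible because the replicate numbers follow accession order and pair no samples. Precision is limited by the 3 libraries of a group, the 1 culture, and as few as 873 member counts in a control.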
